A study of Arabidopsis thaliana with 4 samples.

Results

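AT1G16840 and AT1G16850 are next-neighbour genes on chromosome 1 of Arabidopsis thaliana, and both had higher signals in plants that express the transcription factor CBF2 in the warm. The pair consists of 2 of the 13286 genes with a probe set assigned to exactly 1 gene, and it was chosen by its rises and starting levels in these same arrays, so its own values are given as a description without a test. The gene table lists both as protein-coding, with no gene of any kind starting between them, and gives neither a symbol nor a function. RNA was measured on 4 Affymetrix ATH1 arrays, 2 of 35S::CBF2 plants and 2 of wild type plants. The 35S::CBF2 plants overexpress CBF2 from the 35S promoter, which is active in most plant tissues, and the wild type plants carry no such transgene and are of the Ws-2 accession. Both groups were whole plants aged 10 days, grown on plates at 24 °C in continuous light after 4 days of cold stratification at 4 °C. For each group 4 plates of about 100 plants were harvested plate by plate, and the labels do not say which plate an array holds. The titles of the 35S::CBF2 arrays carry the codes E24 and E2, whereas the protocol names E2 for both, so whether they are 1 or 2 transgenic lines is not settled. In what follows, 35S::CBF2 replicate 1 is the array coded E24 and replicate 2 the array coded E2. The labels do not state separate cultures for the arrays of a group, so p-values reflect only array-to-array spread, which may be technical.

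CBF2 belongs to the CBF (DREB1) group of AP2/ERF transcription factors. These proteins appear early when a plant is chilled, bind the CRT/DRE element in the promoters of cold-regulated genes, and raise transcripts such as those of the COR15 and dehydrin genes, which help cells withstand freezing. When CBF2 is driven from the 35S promoter, transcripts that depend on it can be observed without cold. The gene table holds CBF2, but the platform annotation used here assigns 0 probe sets to it alone, so the transgene's own signal was not analysed here.

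All 4 arrays had been scaled to the same trimmed mean, and their median signals lay between 39.6 and 42.4 units. Log2 signals of tested probe sets correlated at r = 0.966 within each group and at 0.922 to 0.940 across groups. The labelled material was checked with marker genes: 4 of 6 shoot markers and 3 of 5 root markers had a probe set of 1 gene. Of these 7 genes 0 passed the test, where 3.36% of all tested probe sets passed. The summed signal of the shoot markers was 17280 to 20560 in 35S::CBF2 and 19390 to 20260 in wild type. That of the root markers was 1486 to 2133 in 35S::CBF2 and 1555 to 1948 in wild type. Nearly all of the root sum was PYK10, at 1429 and 2046 units in 35S::CBF2 and 1872 and 1473 units in wild type. The other root markers, EXPA7 and EXPA18, lay between 25.6 and 46.7 units. None of the 6 flower and seed markers had a probe set of 1 gene, so their absence was not checked. In whole plants, more RNA per cell and more cells that express a gene cannot be told apart.

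AT1G16840 had a clear signal in wild type and a higher one in 35S::CBF2. Its signals were 503 and 507 units on the 35S::CBF2 arrays, against 187 and 173 units on the wild type arrays. The groups did not overlap, and the arrays within each group were close: the brighter exceeded the dimmer 1.01-fold in 35S::CBF2 and 1.08-fold in wild type. The geometric mean was 505 units in 35S::CBF2 and 180 units in wild type, a 2.81-fold rise (log2 difference 1.49 ± 0.16, SE from the fit across all probe sets, n = 2 per group). Over the 4 pairings of a 35S::CBF2 array with a wild type array, the ratio ranged from 2.69 to 2.93. Both wild type signals of AT1G16840 lay well above 14.5 units, the highest signal that any of 27 control probe sets for bacterial genes reached on any array. Their geometric mean was 12.4 times that level, so the rise of AT1G16840 is an increase of a transcript already measured in wild type.

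AT1G16850 showed a different start. Its signals were 909 and 1569 units on the 35S::CBF2 arrays, against 1.77 and 1.90 units on the wild type arrays. Both wild type signals lay below the 14.5 units of the bacterial controls, which are not meant to detect plant RNA, so wild type gives only an upper limit for AT1G16850. Set against that limit, the geometric mean of 1194 units in 35S::CBF2 was at least 82.5-fold higher. The log2 difference computed from the signals as deposited was 9.35 ± 0.31 (SE, n = 2 per group), but it depends on wild type values under the limit. With all signals below 14.5 units raised to it, the difference was 6.37.

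**Figure D1:**
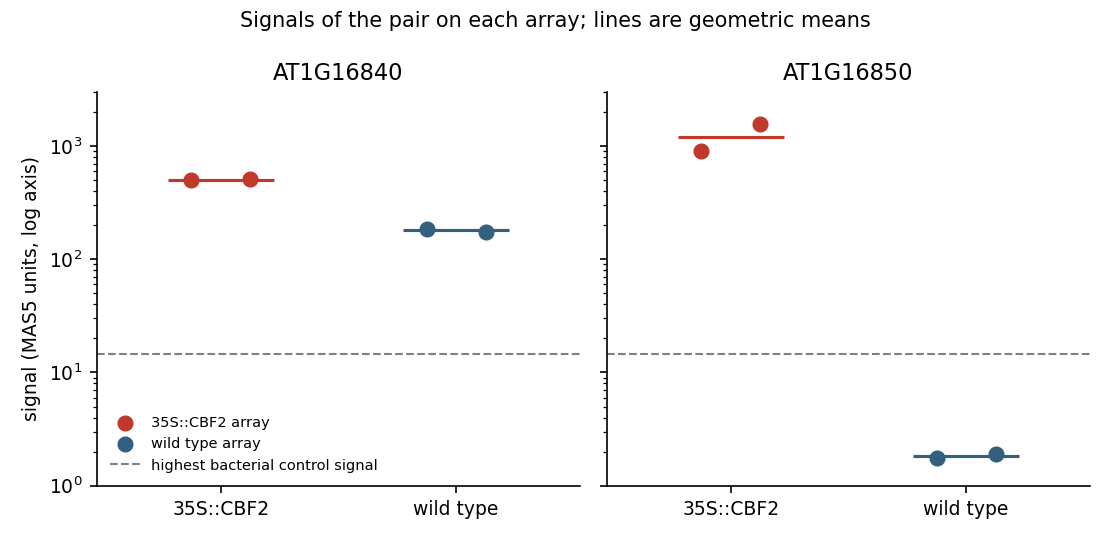
Signals of AT1G16840 (left) and AT1G16850 (right) on each array, on a logarithmic axis in MAS5 units, with lines at the geometric means and a dashed line at the highest signal of the bacterial controls. The 35S::CBF2 signals of AT1G16840 sit at 503 and 507, above wild type signals of 187 and 173 that are themselves far over the dashed line, whereas the wild type signals of AT1G16850, 1.77 and 1.90, lie under it.

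The 35S::CBF2 arrays agreed more closely for AT1G16840 than for AT1G16850. For AT1G16850 replicate 2 was 1.73-fold brighter than replicate 1, a log2 gap of 0.79, and 5.71% of the tested probe sets had a larger gap between these arrays. For AT1G16840 the gap was 0.01, and 97.2% of the tested probe sets had a larger one. Measured from the mean of the wild type arrays, the log2 difference of AT1G16840 was 1.49 on replicate 1 and 0.01 more on replicate 2, while that of AT1G16850 was 8.95 on replicate 1 and 9.74 on replicate 2. The hybridisation spike-ins, RNAs added to every sample before hybridisation, were also brighter on replicate 2, at 2.04 times the wild type mean against 0.611 times on replicate 1; their part in the gap of AT1G16850 was not tested. Without replicate 2 the log2 differences were 1.49 for AT1G16840 and 8.95 for AT1G16850, the latter with wild type values under the limit. The pair was chosen on all of these arrays, so leaving 1 out is no independent check of the rises.

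The rises of the 2 genes were of unequal size, which is part of how the pair was chosen. With signals raised to the limit, the log2 difference of AT1G16850 exceeded that of AT1G16840 by 4.87. From the signals as deposited the excess was 7.85, with the wild type values of AT1G16850 under the limit.

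Across the array, 13647 probe sets were bright enough to be tested, and their median log2 difference was -0.04. The largest log2 difference was that of COR15A, whose product stabilises chloroplast membranes during freezing. AT1G16850 had rank 2 in the deposited signals, where its wild type values are under the limit, and rank 5 with signals raised to the limit, at 6.37. Its place is therefore not settled by these values. The brightness filter used the mean over all arrays, so AT1G16850 and COR15A were tested only through their 35S::CBF2 signals. AT1G16840 ranked 147th in the deposited signals and 143rd at the limit. A rise of at least 2-fold was seen in 320 probe sets, one of at least 4-fold in 80 and one of at least 16-fold in 14. Both arrays of 35S::CBF2 lay above both of wild type in 17.8% of all tested probe sets, and the absence of overlap in both genes of the pair follows from how they were chosen.

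**Figure D2:**
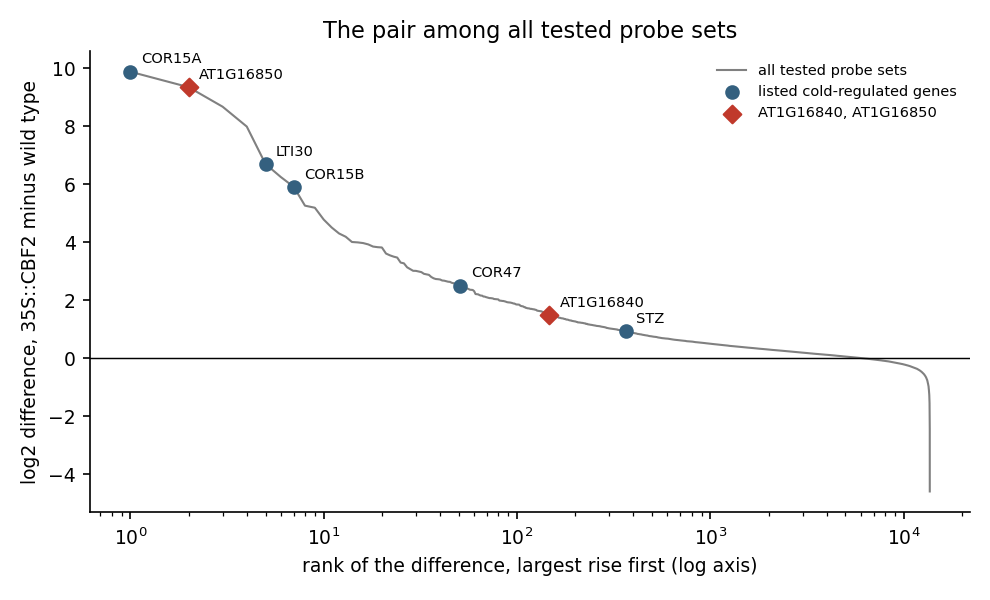
Log2 differences of all 13647 tested probe sets (35S::CBF2 minus wild type) by rank, largest rise first, on a logarithmic rank axis; diamonds mark the pair and circles the cold-regulated genes of the list. Values are as deposited: AT1G16850 at 9.35 and COR15A at 9.88 rest on wild type signals under the limit, where they become 6.37 and 9.20, and AT1G16840 stands at 1.49, between COR47 at 2.50 and STZ at 0.92.

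Genes that CBF proteins are known to regulate in the cold give the setting for these rises. Of 22 such genes listed, 5 had a probe set of 1 gene and all 5 were tested; 4 rose and 0 fell (limma, Benjamini-Hochberg adjusted p under 0.05), where 2.11% of all tested probe sets were higher and 1.25% lower. Their median log2 difference was 5.91, against -0.04 over all tested probe sets. The list was chosen with earlier results of these data known, so the count and the median are descriptions. COR15A had signals of 8987 and 8018 units in 35S::CBF2, against 13.2 and 6.18 units in wild type. As for AT1G16850, the groups were far apart and both wild type signals lay under the limit, so its rise was at least 586-fold. Its call among the 4 came from the deposited signals and is no test of that bound (limma, adjusted p = 1.15e-08). COR15A also entered the test only through its 35S::CBF2 signals. LTI30, a dehydrin gene, rose 104-fold (log2 difference 6.70 ± 0.16). COR47, another dehydrin gene, had signals of 8263 and 7379 units in 35S::CBF2, against 1514 and 1260 units in wild type. Like AT1G16840 it already had a clear wild type signal, and it rose 5.65-fold (log2 difference 2.50 ± 0.15; limma, adjusted p = 3.49e-06). STZ, which encodes a zinc finger repressor, showed a log2 difference of 0.92 ± 0.38 that missed the threshold (limma, adjusted p = 0.310).

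The genes around the pair were examined for whether the rise extended to them. Of the 10 protein-coding genes on each side, 10 in all had a probe set of 1 gene and 5 were bright enough to be tested, 3 before the pair and 2 after it. None of these 5 passed the threshold in either direction (limma), against 3.36% of all tested probe sets, and 1 of them had an unadjusted p under 0.05. Their log2 differences ranged from -0.10 to 0.60, with a median of 0.03.

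Among the 5 tested neighbours, the gene with the unadjusted p under 0.05 was AT1G16860, which directly follows AT1G16850. Its signals were 207 and 260 units in 35S::CBF2, against 140 and 168 units in wild type. The groups did not overlap, but the log2 difference of 0.60 ± 0.20 did not pass (limma, adjusted p = 0.180), and its adjusted p ranged from 0.101 to 0.671 over the 14 alternatives. The gene after it, AT1G16870, had signals of 220 and 167 units in 35S::CBF2, against 196 and 190 units in wild type. Here the 35S::CBF2 signals lay on both sides of the wild type ones, with a log2 difference of -0.01 ± 0.20 (limma, adjusted p = 0.995). The 8 genes that follow have no probe set of 1 gene in the platform annotation used, which leaves 8730 probe sets unnamed, so they were not examined.

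On the other side, AT1G16830 directly precedes AT1G16840 and was too dim to be tested. Its signals were 1.85 and 1.75 units in 35S::CBF2, against 16.9 and 19.3 units in wild type. The direction was opposite to that of the pair, but the wild type signals were just above the bacterial control limit and the 35S::CBF2 signals below it, so AT1G16830 was at least 1.25-fold lower in 35S::CBF2 and the size of the difference is not known beyond that. When all probe sets were tested, the log2 difference of AT1G16830 was -3.33 ± 0.83 and did not reach the threshold (limma, unadjusted p = 0.00357, adjusted p = 0.146). Farther from the pair, AT1G16810 had signals of 213 and 220 units in 35S::CBF2 and 211 and 186 units in wild type. AT1G16790 and AT1G16750 had log2 differences of 0.03 ± 0.23 and -0.10 ± 0.22, and none of these 3 passed. The other dim neighbours, AT1G16760, AT1G16770, AT1G16800 and AT1G16820, had log2 differences from -1.79 to 0.18 and did not pass when all probe sets were tested.

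**Figure D3:**
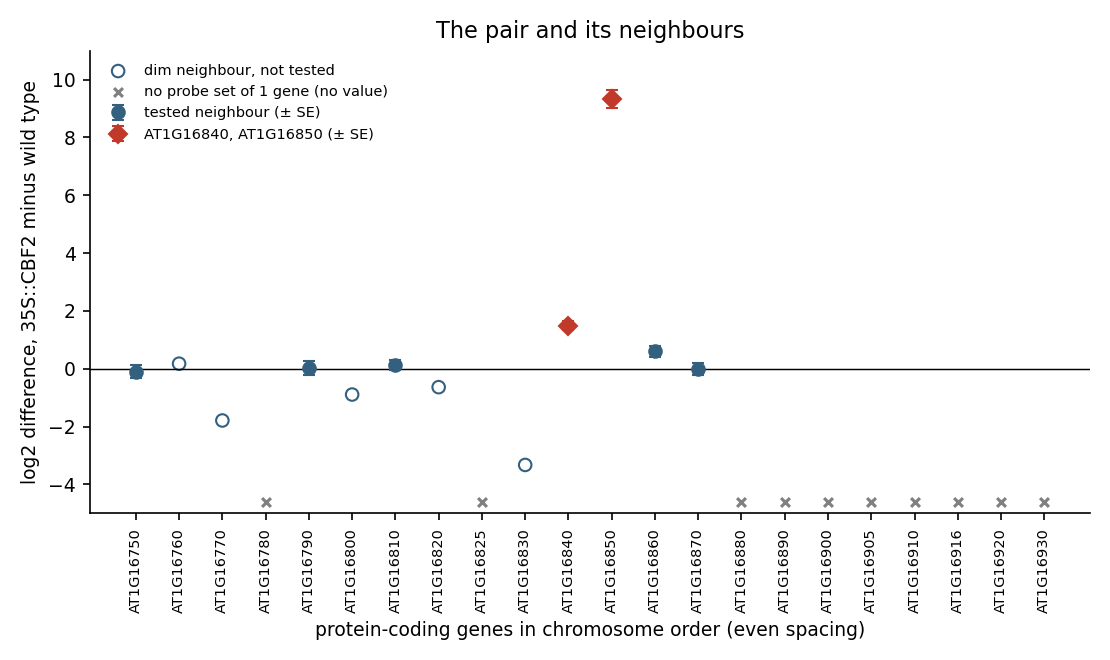
Log2 differences (35S::CBF2 minus wild type) of the pair and of 10 protein-coding genes on each side, in chromosome order with even spacing. Diamonds are the pair and filled circles tested neighbours, both with the SE of the fit, open circles are dim neighbours that were not tested, and crosses at the bottom mark genes without a probe set of 1 gene; the 5 tested neighbours lie between -0.10 and 0.60, below 1.49 of AT1G16840 and 9.35 of AT1G16850.

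The pair was then placed among all adjacent genes. There were 2099 pairs of next-neighbour protein-coding genes in which both had a tested probe set of 1 gene. In 5 of them, or 0.238%, both genes were higher in 35S::CBF2, in 0 both were lower, and in 0 they passed in opposite directions. AT1G16840 and AT1G16850 are one of the 5, as their choice fixes. In 71 further pairs exactly 1 gene was higher and its neighbour did not pass, so 6.58% of the 76 pairs with a higher gene had both higher. Of the 3608 genes in the tested pairs 67 were higher, and 2.11% of all tested probe sets were. The share of 6.58% is taken over pairs with a higher gene, so it is a different measure from the shares of genes or probe sets. It includes the chosen pair and was not tested. The pair AT1G16850 and AT1G16860 is among the 71.

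The other 4 adjacent pairs with both genes higher were COR15B with COR15A, SWEET10 with SWEET13, AT5G62350 with AT5G62360, and AT1G76580 with AT1G76590. COR15B and COR15A are close relatives in sequence, and SWEET10 and SWEET13 encode members of a family of sugar transporters. COR15B had signals of 4554 and 4462 units in 35S::CBF2, against 85.3 and 66.1 units in wild type. It rose without overlap of the groups (log2 difference 5.91 ± 0.17; limma, adjusted p = 1.15e-08), and its log2 difference lay 3.97 below that of COR15A. SWEET10 had signals of 180 and 119 units in 35S::CBF2, against 6.42 and 13.6 units in wild type, both under the limit. Like AT1G16850 and COR15A, it passed the brightness filter only through its 35S::CBF2 signals. SWEET13 had 114 and 159 units in 35S::CBF2, against 39.8 and 34.2 units in wild type. The log2 differences were 3.97 ± 0.39 for SWEET10 and 1.87 ± 0.25 for SWEET13. Both passed, as did the genes of the other pairs here, because that is how these pairs were listed. AT5G62350 and AT5G62360 differed in their log2 rises by 0.42, and AT1G76580 and AT1G76590 by 0.22. With signals raised to the limit, the log2 differences within a pair were 4.87 apart for AT1G16840 and AT1G16850, 3.29 for COR15B and COR15A and 1.47 for SWEET10 and SWEET13. These gaps were not tested against each other, and that of AT1G16840 and AT1G16850 is part of its choice. The call of AT5G62360 was lost with no filter on dim probe sets (limma, adjusted p = 0.0896) and without the intensity trend (0.139), with values from 2.01e-05 to 0.139 across the alternatives.

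**Figure D4:**
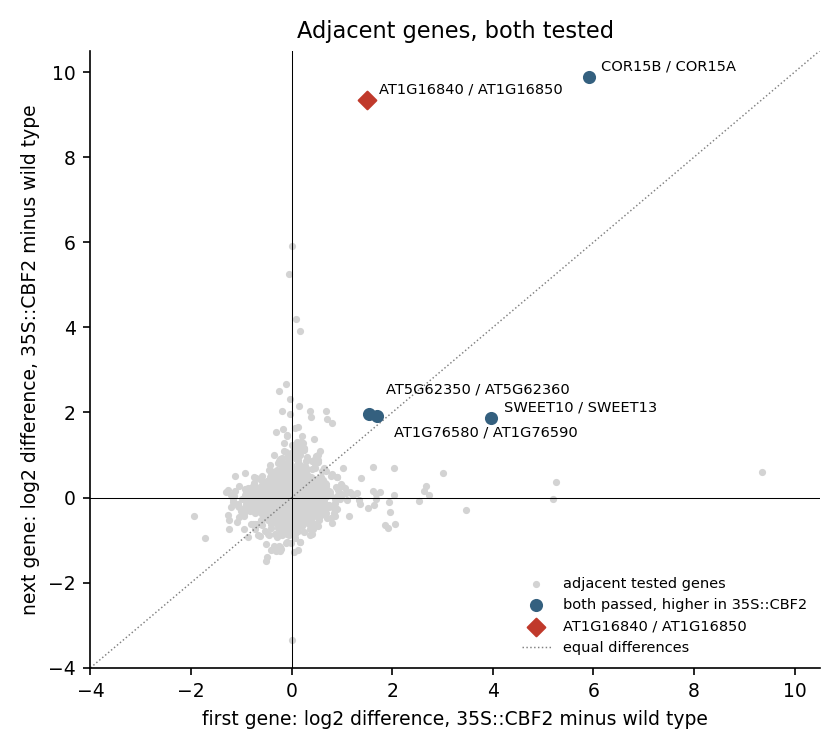
Log2 differences (35S::CBF2 minus wild type) of the 2099 adjacent gene pairs, first gene in chromosome order on the horizontal axis and next gene on the vertical axis, with a dotted line at equal differences. Circles mark the other 4 pairs with both genes higher and the diamond marks AT1G16840 (1.49) with AT1G16850 (9.35), whose distance from the dotted line would shrink to 4.87 on the vertical axis with signals raised to the limit.

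Genes with the most similar array profiles were found by the Euclidean distance between log2 signals on the 4 arrays, each centred on the gene's own mean, over 7188 other genes with a tested probe set. With 4 arrays in 2 groups, this distance mostly reflects the size of the difference between the groups. For AT1G16840 the nearest were AT1G79660, AT5G28150, AT1G76580, SP1L2 and tny, at distances of 0.19 to 0.23. SP1L2 belongs to the SPIRAL1-like family of microtubule-associated proteins, and tny is the gene of TINY, an AP2/ERF transcription factor of the DREB subfamily to which CBF2 also belongs. The transcript of tny had signals of 199 and 222 units in 35S::CBF2, against 92.4 and 77.7 units in wild type. Its groups were apart, and it rose 2.48-fold (log2 difference 1.31 ± 0.20; limma, adjusted p = 0.00394). SP1L2 rose 2.44-fold (limma, adjusted p = 0.0103), a call that was lost without 35S::CBF2 replicate 2 (0.0675), with values from 0.00507 to 0.0675 across the alternatives. The rises of AT1G79660, AT5G28150 and AT1G76580 were 2.94-fold, 2.89-fold and 3.25-fold, and each passed the threshold. All of these genes were picked for a profile close to that of AT1G16840. That they rose and passed therefore follows largely from the choice.

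For AT1G16850 the genes nearest in the deposited signals were COR15A, LTI30, COR15B, AT2G43620 and AT1G51090, but this order rests on wild type signals of AT1G16850 and COR15A under the limit. With signals raised to the limit, a setting added after seeing the data, LTI30 was nearest at a distance of 0.57. COR15B followed at 0.78, AT2G43620 at 1.28 and AT1G51090 at 1.34, while COR15A moved to 2.91. These distances depend on where the limit lies, so the gene nearest to AT1G16850 is not settled in either setting. LTI30 had signals of 4570 and 5124 units in 35S::CBF2, against 43.4 and 50.2 units in wild type. AT2G43620 had signals of 1277 and 3241 units in 35S::CBF2, against 41.6 and 67.8 units in wild type. Like AT1G16850 it was brighter on 35S::CBF2 replicate 2 than on replicate 1, while COR15A was slightly brighter on replicate 1. AT1G51090 had signals of 688 and 638 units in 35S::CBF2, against 19.2 and 17.2 units in wild type, a 36.5-fold rise. The nearest genes of AT1G16840 and their distances were the same with signals raised to the limit.

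**Figure D5:**
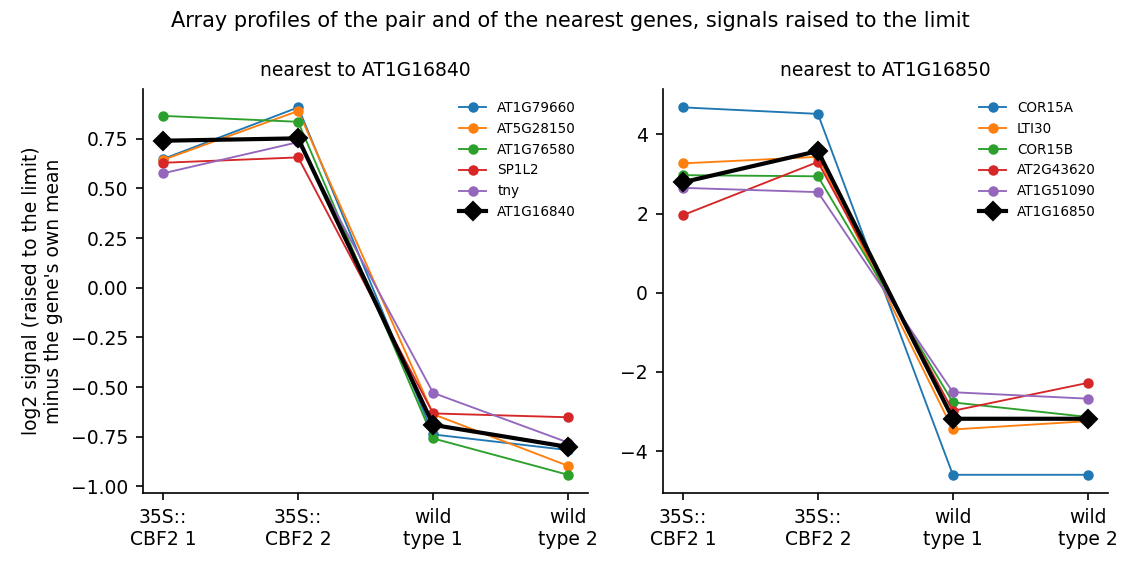
Log2 signal minus the gene's own mean on each array, with signals raised to the limit of 14.5 units, for AT1G16840 (left, black) and AT1G16850 (right, black) with the 5 genes nearest to each in the deposited signals; lines join the arrays only to guide the eye, and the vertical scales differ. On the right AT1G16850 lies close to LTI30 and COR15B, at distances of 0.57 and 0.78, and COR15A spans a wider range, at a distance of 2.91. The distances on the right depend on where the limit lies.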

How the data were processed

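The deposited values are signal intensity per probe set on a linear scale, and the submitters' processing notes name MAS5 as the tool, without a version. The 2%-trimmed mean was 100.01 units on each array, so the authors' scaling was kept. Of 22810 probe sets, 64 controls were left out. Probe sets took gene names from the platform annotation through gene identifiers matched to RefSeq genes of TAIR10.1: 13513 carry 1 gene (13436 matched), 503 several, and 8730 are unnamed here. The gene table served only for names and gene order; where a gene had several probe sets, the brightest was used. Detection calls were not used.

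Signals were taken to log2, and the 13647 gene probe sets above the 40th percentile of mean log2 signal (a geometric mean above 24.9 units) entered limma 3.58.1 (R 4.3.3; lmFit and trended eBayes). Tests were two-sided at a threshold of 0.05 after Benjamini-Hochberg adjustment over these probe sets. Differences are 35S::CBF2 minus wild type. Only 2 arrays per group limit the precision. Named genes were the pair, neighbours within 10 genes, the measured cold-regulated genes, adjacent genes that both rose, and the 5 genes nearest in profile to each member. The members and lists were chosen with earlier results of these data known. On data simulated for the 13647 probe sets of this comparison, 61.0% of 100 probe sets changed 2-fold and 94.0% of 100 changed 4-fold were recovered, with 10 false calls. The simulated noise was independent and normal, with nearly the same variance for probe sets of similar signal. These figures hold only for such noise. Alternatives changed the scaling, the handling of low signals, the filter, eBayes, the threshold and the arrays used. Planned searches of promoters and proteins, and the strands of the genes, were not analysed here.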

Additional observations from a re-analysis of the deposited data

Results flagged for a closer look

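The hybridisation spike-ins were outside the main comparison, and on 35S::CBF2 replicate 2 their signal was above that of the wild type arrays, at 2.04 times the wild type mean (geometric mean over 9 probe sets), against 1.04 and 0.958 times on the wild type arrays themselves. The median signal of gene probe sets on that array was 39.6 units, against 42.4 units on 35S::CBF2 replicate 1. Groups of 2 arrays are too small for a check of single outlying arrays.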

How the results depend on the processing

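The log2 difference of AT1G16840 (1.49) lay between 1.43 and 1.55 and that of AT1G16850 (9.35) between 6.37 and 9.74 over the alternatives run. An offset of 11.7 units before the log gave 1.43 and 6.48, and a floor at 14.5 units gave 6.37 for AT1G16850; both raise its wild type values by construction. Dropping single arrays gave 1.44 to 1.55 for AT1G16840 and 8.95 to 9.74 for AT1G16850. The count of changed probe sets (458) was 205 when eBayes used no trend, 661 when arrays were blocked by title letter, and 270 to 605 when single arrays were dropped (270 without 35S::CBF2 replicate 2). The count of higher ones (288) was 157 with no trend and from 178 up to 334 when single arrays were dropped (178 without 35S::CBF2 replicate 2). The cause was not tested. The adjacent pairs with both genes higher (5) were 3 with the filter at the 60th percentile. That setting tests 890 pairs and drops AT1G16840 with AT1G16850 and SWEET10 with SWEET13. There were 4 such pairs with no filter, 4 with no trend and 6 when arrays were blocked by title letter. The count of neighbours past the threshold was 0 and that of cold-regulated genes higher was 4 under each of the 14 alternatives. For the other named genes, 303 comparisons kept their side of the threshold and 3 lost the call. No paired analysis was possible because the groups share only replicate number 1; letters in the titles, of unstated meaning, served as a block instead. The title-letter block cannot change these differences, since each group holds both letters. The alternative window for promoter motifs was not run.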

Other observations

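Across the 2099 pairs of adjacent tested genes, the log2 differences of the 2 genes of a pair correlated at r = 0.220 (Spearman 0.0897), as a description across genes that share the same 4 arrays. Without the pair of AT1G16840 with AT1G16850 the value was 0.212, and without that pair and COR15B with COR15A it was 0.117. The pair of AT1G16850 with AT1G16860 was kept in each of these values.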
